A study of Mus musculus with 14 samples.

Results

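Brown adipocytes from the interscapular fat pad were compared with white adipocytes from the epididymal and inguinal pads of male C57BL/6 mice on either of 2 diets. The brown side consisted of 2 of the 14 libraries, chosen by their titles, 1 from mice on a normal chow diet and 1 from mice on a high-fat diet, and the white side of the other 12, which are 3 libraries for each combination of pad and diet. Diets ran for 16 weeks from weaning at 3 weeks of age. No library carried a transgene or a deletion. Each library pooled the pads of 3 to 5 mice, and the design calls the white libraries biological triplicates, while brown adipocytes have no replicate on either diet. Pads were minced in collagenase, for 20 min (white) or 40 min (brown), and the floating cells were taken, so digestion time and fat type cannot be told apart. Expression is given as FPKM, a level per length that counts sequenced fragments for each kilobase of a transcript, relative to the size of its library.

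Brown adipocytes burn fat to make heat. Their mitochondria carry uncoupling protein 1 (Ucp1), which lets protons return across the inner membrane without making ATP, and sympathetic nerves switch the process on through beta-adrenergic receptors, cyclic AMP and lipolysis. White adipocytes store triglyceride in 1 large droplet and secrete hormones such as leptin. Inguinal white fat can form Ucp1-positive beige cells, and interscapular brown adipocytes share a developmental origin with skeletal muscle.

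A gene entered the comparison with at least 1 FPKM in at least 2 of the 14 libraries, which left 14375 genes after 57 features shorter than 200 bases were set aside. Across both diets limma called 117 genes higher in brown (0.814%) and 944 lower (6.57%) at an adjusted p under 0.05. Both brown libraries lay above all 12 white libraries for 147 genes (1.02%) and below all 12 for 1675 (11.7%), and 78 higher (0.543%) and 633 lower calls (4.4%) were also free of overlap. The excess of lower genes depended on the scale: the median log2 difference over all genes was −0.38 as deposited and −0.01 after TMM-type scaling (factors from a trimmed mean of log ratios), where 369 genes were higher (2.57%) and 313 lower (2.18%). In all, 97 higher (0.675%) and 127 lower genes (0.883%) were called under each of 4 scalings (as deposited, TMM-type, nuclear protein-coding and quantile), and "held" below means this. Within one diet there is 1 brown library and no test. On the normal diet it lay above the 6 white libraries for 1271 genes (8.84%) and below them for 5386 (37.5%), and on the high-fat diet for 1205 (8.38%) and 6478 (45.1%).

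Each brown library weighed heavily on these calls. Without the normal-diet one, 36 genes were called higher (0.25%) and 31 lower (0.216%), and 29 and 25 of the calls remained. Without the high-fat one, the counts were 71 (0.494%) and 743 (5.17%), and 38 and 406 calls remained. A set of 18 higher and 11 lower genes stayed called whichever of the 14 libraries was left out. The 18, some of them named after their values were seen, were Ucp1, Cidea, Slc27a2, Chchd10, H19, Dnajb1, H2-Q10, Gm17024, the mitochondrial rRNAs mt-Rnr1 and mt-Rnr2, and 8 genes of striated muscle (Mb, Myl2, Tnnc2, Tcap, Ckm, Atp2a1, Myoz1 and Csrp3). The 11, likewise, included Hoxc10, Cpt1a, Flna, Iqgap2, Tns3 and Rnd2. Every other call named below was lost in at least 1 fit without a library. Some of the 18 passed the filter only because they were high in brown, since 2 libraries at 1 FPKM were enough. At least Ckm, H19 and Slc27a2 did so, with white maxima of 0.61, 0.794 and 0.521 FPKM. Tcap, Myl2 and Atp2a1 reached 1 FPKM in only 1 white library, so they too needed brown to pass. For such genes the higher call was not independent of the filter. Against inguinal libraries alone limma called 0 genes higher and 1 lower, so the 18 higher genes were not called there.

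The markers of fat cells were strong in every library, and several genes of brown fat, such as Ucp1 and Cidea, were highest in the brown ones. Of the 10 adipocyte markers, limma called 0 either way (0 also at an unadjusted p under 0.05), and Fabp4, the fatty acid carrier of fat cells, stood at 16234 FPKM in the normal-diet and 10172 in the high-fat brown library, inside the white range of 7441.5 to 22266. Markers of other cells moved with fat type too. The 25 skeletal muscle markers summed to 160 and 323 FPKM in the normal-diet and high-fat brown libraries, against 35.7 to 119 in the white ones. Of the 17 past the filter, 13 were called higher, beside 0.814% of all genes. Ckm and Tcap passed it only because they were high in brown (white maxima 0.61 and 1.49 FPKM). Myh1, Myh2, Myh4, Myh7, Ryr1, Mybpc2, Neb and Ttn did not pass. The heavy chains that define muscle fibres, Myh1, Myh2, Myh4 and Myh7, were at 0.665 FPKM or lower in both brown libraries, while the actin Acta1 was at 28.2 and 80.6. The 17 macrophage markers summed to 34.5 and 180 FPKM in brown, below the 220 to 1040 of normal-diet and 259 to 2194 of high-fat white libraries. Several genes of the brown program are also active in muscle, and the part of muscle RNA in those differences was not tested. In bulk RNA, fewer cells of a type and less RNA per cell cannot be told apart.

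The regulatory sequence in front of 4 genes of the comparison is shown first. Ucp1 and Cox7a1 are here because they are the brown-fat genes among the 3 largest higher calls without overlap, Sdhd and Atp5k because they hold motifs known from mitochondrial genes. Each is RefSeq's window on GRCm38.p6 from 250 bases before to 50 bases after a start site, 5′ to 3′ on the gene's strand. Capitals mark matches, on either strand, to the 10-base site of nuclear respiratory factor 1 (NRF1) and to the 9-base half-site of estrogen-related receptors.
Ucp1, chr8:83290098-83290397, plus strand: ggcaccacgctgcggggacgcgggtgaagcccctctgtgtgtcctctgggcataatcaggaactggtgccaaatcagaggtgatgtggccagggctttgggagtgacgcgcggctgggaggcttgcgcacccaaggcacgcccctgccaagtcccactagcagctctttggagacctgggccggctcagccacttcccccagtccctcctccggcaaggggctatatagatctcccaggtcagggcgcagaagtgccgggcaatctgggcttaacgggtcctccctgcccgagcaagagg
Cox7a1, chr7:30183921-30184220, plus strand: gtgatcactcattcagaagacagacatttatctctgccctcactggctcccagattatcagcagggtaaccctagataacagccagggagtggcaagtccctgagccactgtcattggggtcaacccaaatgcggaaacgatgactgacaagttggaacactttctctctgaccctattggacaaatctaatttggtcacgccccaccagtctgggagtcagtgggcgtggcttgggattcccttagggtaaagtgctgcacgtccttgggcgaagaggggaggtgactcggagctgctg
Sdhd, chr9:50603800-50604099, minus strand: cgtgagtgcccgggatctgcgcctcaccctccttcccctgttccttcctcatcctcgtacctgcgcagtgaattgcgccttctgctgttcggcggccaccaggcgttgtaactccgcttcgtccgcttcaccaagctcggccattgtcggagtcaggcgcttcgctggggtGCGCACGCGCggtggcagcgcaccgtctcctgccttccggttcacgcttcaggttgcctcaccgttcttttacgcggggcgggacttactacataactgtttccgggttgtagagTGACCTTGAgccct
Atp5k, chr5:108434350-108434649, minus strand: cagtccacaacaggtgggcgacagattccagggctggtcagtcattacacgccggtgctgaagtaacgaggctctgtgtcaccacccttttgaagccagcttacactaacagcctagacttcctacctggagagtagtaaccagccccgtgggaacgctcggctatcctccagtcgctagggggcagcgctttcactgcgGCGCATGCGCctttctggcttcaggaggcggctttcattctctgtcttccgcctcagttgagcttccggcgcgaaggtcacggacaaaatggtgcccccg

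Windows were matched to 10238 of 14360 nuclear genes past the filter and to 68 of the 95 nuclear genes held higher. The NRF1 letters occurred in 1140 of the 10238 (11.1%) and in 6 of the 68 (8.82%), which were Atp5k, Dnajb1, Ppara, Pstk, Sdhd and Sucla2. They occurred in 7 of the 14 ATP synthase genes with a window, 7 of 33 of complex I, 1 of 5 of complex III, 1 of 12 of complex IV, 2 of 20 of the citric acid cycle and 2 of 19 of fatty acid oxidation. The estrogen-related receptor half-site was rare, in 32 of all genes (0.313%) and, of those held higher, in Sdhd alone. Its end is also part of the direct repeat (DR1) of nuclear receptors, which occurred in 5 genes in all (0.0488%) and in 0 of the 68. The muscle motif of MEF2 occurred in 12 genes in all (0.117%) and in 0 of the 12 muscle markers with a window, and the TATA box in 918 (8.97%) against 9 of the 68 (13.2%). Ucp1 and Cox7a1 held none of these letters in this window.

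Ucp1 (ENSMUSG00000031710, chromosome 8, 83290348 to 83298456 in GRCm38.p6) was the largest higher call without overlap. Its level was 121 FPKM in the normal-diet and 503 in the high-fat brown library. The 6 normal-diet white libraries ranged from 0.04 to 3.29 FPKM with a median of 0.188, and the 6 high-fat ones from 0.128 to 36.1 with a median of 0.466. Both brown libraries stood above all white ones, and the white maximum of 36.1 came from a single library, inguinal high-fat replicate 2. The log2 difference, on the log2(FPKM + 0.5) scale used throughout, was 7.54 (SE 0.99, limma adjusted p = 0.0025).

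That inguinal library had the highest white value of several brown fat genes. Of the 14 brown effector genes called higher, 8 peaked there among white libraries (Ucp1, Cidea, Cox7a1, Cox8b, Otop1, Cpt1b, Fabp3 and Pank1). The other 2 inguinal high-fat libraries had 0.167 and 1.18 FPKM of Ucp1, and inguinal normal-diet replicates 0, 1 and 2 had 0.258, 3.29 and 1.62. All 6 epididymal libraries were at 0.561 FPKM or lower. The muscle marker sum of 119 FPKM in inguinal high-fat replicate 2 was also the highest among the white libraries, and its part was not tested.

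**Figure D1:**
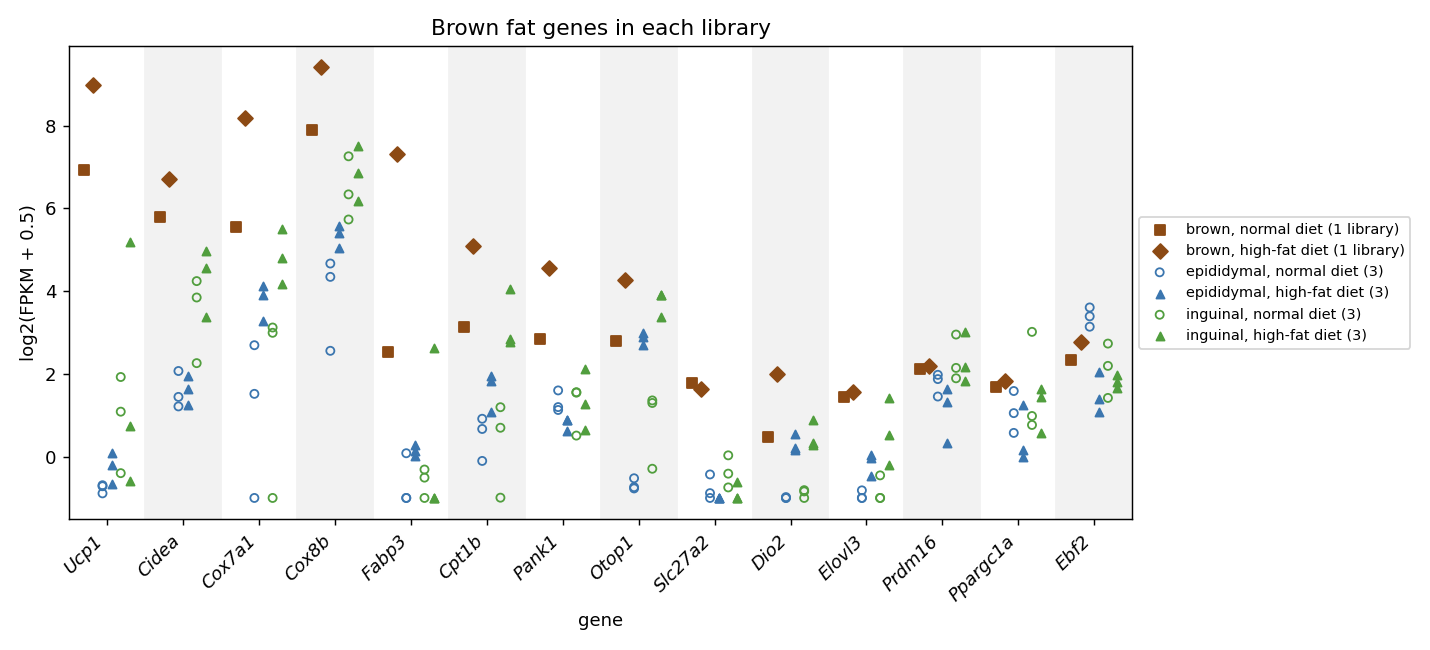
Level of 14 brown fat genes in each of the 14 libraries on a log2(FPKM + 0.5) scale, with a point per library. For Ucp1 the brown libraries (121 and 503 FPKM) lie above every white point, with 1 inguinal high-fat library at 36.1, while Prdm16, Ppargc1a and Ebf2 in brown lie among or near the white points.

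The effector list as a whole leaned the same way. Of its 27 genes, 26 passed the filter. Of these, 14 were called higher (13 of them held), beside 0.814% of all genes, 0 lower, beside 6.57%, and 12 neither. Both brown libraries lay above all white ones for 11 and below all for 1, beside 1.02% and 11.7% of all genes. On the high-fat diet 20 of the 26 lay above and 5 below all 6 white libraries, beside 8.38% and 45.1% of all genes. The median log2 difference was 1.49, beside −0.38 over all genes. The 14 fell to 6 without the normal-diet brown library and to 8 without the high-fat one.

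The effectors cover lipid droplets, respiration and fatty acid handling. Cidea (ENSMUSG00000024526), a lipid droplet protein of brown fat, was at 54.7 and 105 FPKM on the normal and high-fat diet, against 1.82 to 18.4 (median 3.99) and 1.89 to 30.9 (median 6.63) in white libraries of the same diet. Its groups did not overlap, with a log2 difference of 3.52 (SE 0.47, limma adjusted p = 0.0025).

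Cox7a1 and Cox8b encode the heart and muscle forms of cytochrome c oxidase subunits, which brown fat also uses. Cox7a1 was at 46.2 and 289 FPKM in brown, against 0 to 8.20 in normal-diet and 9.19 to 44.8 in high-fat white libraries. It was called (log2 4.02, SE 0.92, limma adjusted p = 0.023), but no longer after nuclear scaling (adjusted p = 0.053) or without either brown library (adjusted p = 0.18 without the normal-diet and 0.088 without the high-fat one). Cox8b stood at 238 and 678 FPKM, above white ranges of 5.38 to 153 and 32.7 to 181 (log2 3.03, SE 0.51, adjusted p = 0.0062, and 0.078 without the normal-diet brown library).

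Genes of fatty acid handling differed in how far the 2 brown libraries lay apart. Fabp3, the fatty acid binding protein of heart and muscle, was at 5.23 FPKM on the normal and 158 on the high-fat diet, against white ranges of 0 to 0.558 and 0 to 5.68. The log2 difference was 3.14 on the normal and 7.14 on the high-fat diet, and 5.14 over both (SE 0.87, limma adjusted p = 0.0063, and 0.088 without the high-fat brown library). Cpt1b, the muscle form of the enzyme that admits fatty acids to mitochondria, was at 8.30 and 33.4 FPKM against white maxima of 1.79 and 16.2 (log2 2.70, adjusted p = 0.017). Its liver form Cpt1a went the other way, at 8.15 and 14.6 FPKM against white ranges of 15.6 to 24.1 and 28.4 to 46.2. Cpt1a was below all white libraries of the same diet, with a log2 difference of −1.28 (SE 0.14, adjusted p = 0.0013), and was called lower under all 4 scalings and with any library left out.

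Slc27a2, a fatty acyl-CoA synthetase, was at 2.90 and 2.62 FPKM, above a white maximum of 0.521 (log2 2.46, adjusted p = 0.0025). Pank1, which makes the precursor of coenzyme A, was at 6.62 and 23.0 against white maxima of 2.53 and 3.86 (log2 2.53, adjusted p = 0.0070). The remaining effectors called higher were the proton channel gene Otop1 (log2 1.86), the thyroid hormone deiodinase Dio2 (1.49, at 0.878 and 3.46 FPKM), the elongase Elovl3 (1.83), the acyl-CoA thioesterase Acot11 (1.95), the mitochondrial protein gene Letmd1 (1.14) and glycerol kinase, Gk (1.21). For Otop1 the order was diet by diet: it stood at 6.46 FPKM on the normal diet, above 0.0864 to 2.06 in white, and at 18.7 on the high-fat diet, above 6.01 to 14.4.

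Regulators of the brown program were less separated than its effectors. Of 20 listed, 16 passed the filter, 2 were called higher (Ppara, which held, and Lhx8), 2 lower (Epsti1 and Zfp516) and 12 neither. Neither lower call held, and 0 were called lower after TMM-type or after quantile scaling. Over all genes 0.814% were called higher and 6.57% lower. Prdm16, the factor that directs cells away from muscle toward brown fat, was at 3.85 and 4.07 FPKM, inside the white range of 0.766 to 7.53 (log2 0.28, adjusted p = 0.65). Ppargc1a, the coactivator of mitochondrial genes, was at 2.72 and 3.05 FPKM against 0.497 to 7.59 (log2 0.67, adjusted p = 0.40), and the early brown factor Ebf2 at 4.51 and 6.28 against 1.60 to 11.7 (log2 0.34, adjusted p = 0.63). These p-values do not show that the levels were alike. Ppara, the lipid-sensing receptor that drives fatty acid oxidation, was at 6.53 and 9.99 FPKM against white ranges of 1.47 to 7.85 and 1.57 to 3.43 (log2 1.52, adjusted p = 0.035). Zic1, a factor of the interscapular lineage, did not pass the filter: it stood at 2.79 FPKM on the normal and 0.975 on the high-fat diet, while the highest white value was 0.109 and all 6 epididymal libraries listed it at 0. Bmp8b, a secreted brown fat factor, was listed at 0 in all 14 libraries.

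HOX genes mark position along the body. Of 40 listed, 25 passed the filter, 3 were called lower (Hoxa9, Hoxc9 and Hoxc10, of which Hoxc10 held), 0 higher and 22 neither. Over all genes 6.57% were called lower and 0.814% higher. At an unadjusted p under 0.05 in limma, 2 of the 25 were higher and 7 lower. Both brown libraries lay below all white ones for 3 of the 25, beside 11.7% of all genes. Hoxc10 (ENSMUSG00000022484, chromosome 15, 102966796 to 102971898) was listed at 0 in both brown libraries, against 0.036 to 0.801 FPKM in epididymal and 6.75 to 13.8 in inguinal ones. Its log2 difference of −2.63 (SE 0.35, limma adjusted p = 0.0025) is set by the pseudocount. Hoxc9 was at 0.0439 and 0.0701 FPKM, below 0.620 to 2.04 in epididymal and 1.02 to 4.58 in inguinal libraries (log2 −2.02, adjusted p = 0.016, not called under quantile normalization, adjusted p = 0.12). The neighbours Hoxc4, Hoxc5, Hoxc6 and Hoxc8 were present in brown, at 6.93, 5.69, 12.7 and 15.8 FPKM on the normal diet, and none of these 4 was called.

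Brown also shared markers with 1 white pad. Tbx15, a T-box factor of subcutaneous and brown fat, was at 4.77 and 2.17 FPKM in brown and at 2.58 to 5.71 in inguinal libraries, but at 0.196 or lower in the epididymal ones (log2 1.36, limma adjusted p = 0.012). Against inguinal libraries alone its log2 difference was −0.04. Lhx8, a LIM-homeobox factor of brown fat, was at 6.04 and 2.62 FPKM in brown, 0 to 0.250 in epididymal and 0 to 3.33 in inguinal libraries (log2 2.13, adjusted p = 0.046). Ranges of each pad were also taken over both diets together. On that measure both brown libraries lay above the epididymal and within the inguinal range for 128 of all genes (0.890%). They lay above the inguinal and within the epididymal range for 60 (0.417%), including Hoxc4. Within each diet Hoxc4 was outside the epididymal range, at 6.93 against 8.30 to 11.4 FPKM on the normal and at 7.19 against 4.23 to 5.58 on the high-fat diet. Both brown libraries lay below the epididymal and within the inguinal range for 783 genes (5.45%), among them the antiprotease Slpi and the oxytocin receptor Oxtr. They lay below the inguinal and within the epididymal range for 454 (3.16%). Oxtr was within the inguinal range only over both diets together. It was at 2.32 and 7.61 FPKM in brown, against 1.21 to 2.71 in normal-diet and 40.8 to 51.6 in high-fat inguinal libraries. The lymphocyte marker sum was 801 and 1269 FPKM in inguinal normal-diet replicates 0 and 2, against 108 or lower in every other library.

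**Figure D2:**
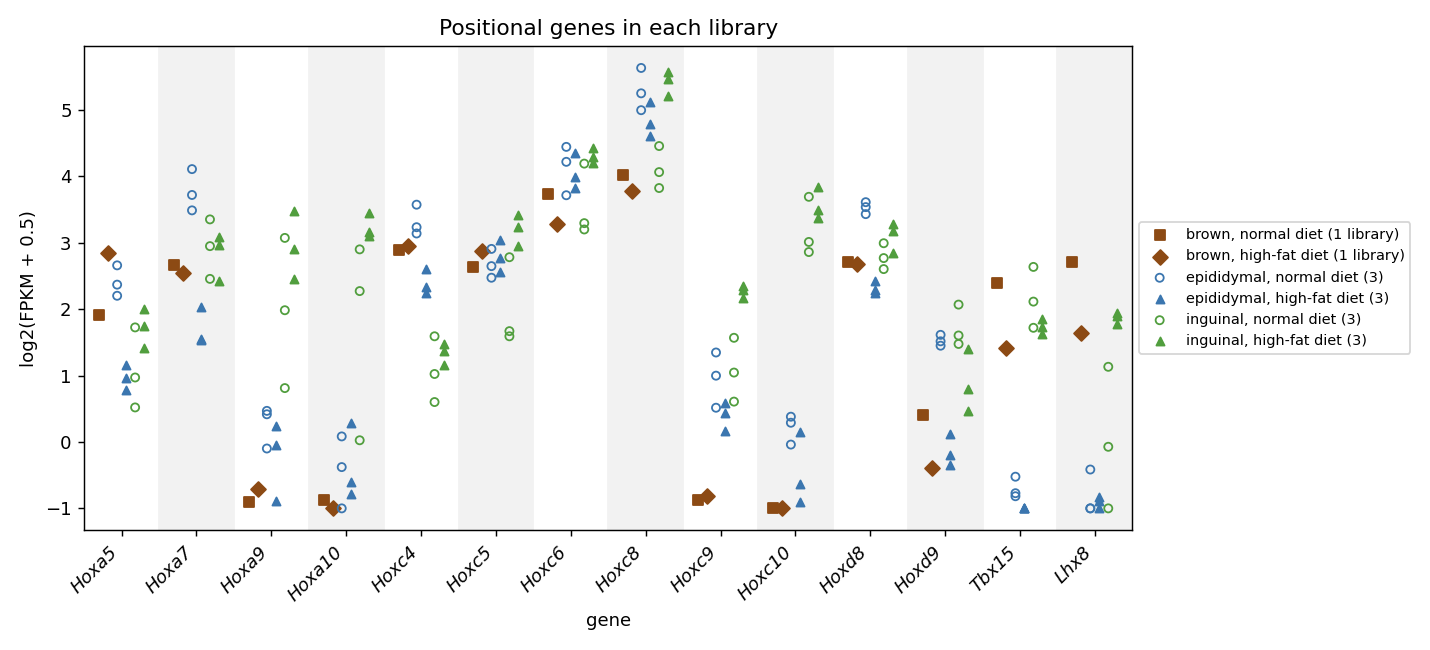
Level of 14 positional genes in each library on a log2(FPKM + 0.5) scale, with a point per library. Hoxc10 sits at the floor in both brown libraries and is at 6.75 FPKM or higher in every inguinal library, whereas Tbx15 in brown (4.77 and 2.17 FPKM) is near the inguinal points and above all epididymal ones.

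Among respiratory chain genes, cytochrome c oxidase (complex IV) had the most calls as deposited. Of its 16 nuclear genes, 7 were called higher (5 held), 0 lower and 9 neither, and 10 had both brown libraries above all white ones. Over all genes, 0.814% were called higher, 6.57% were called lower and 1.02% had both brown libraries above all white ones. The median log2 difference of the 16 was 0.45, beside −0.38 over all genes. Cox5a was at 144 and 248 FPKM against white ranges of 86.3 to 118 and 83.6 to 115 (log2 0.91, SE 0.17, limma adjusted p = 0.0098), and Cox7b at 126 and 144 against 57.6 to 89.9 and 51.2 to 104 (log2 0.96, adjusted p = 0.019). Without either brown library in turn, 1 of the 16 was called.

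The other complexes had fewer calls as deposited, although the median log2 differences of complexes II and III, 0.60 and 0.56, were above that of complex IV. Sdhd of complex II was at 110 and 179 FPKM against white maxima of 90.4 and 109 (log2 0.64, limma adjusted p = 0.032), the Rieske protein gene Uqcrfs1 of complex III at 157 and 216 against 119 and 120 (log2 0.91, adjusted p = 0.013), and Atp5k of the ATP synthase at 426 and 398 against 287 and 275 (log2 0.80, adjusted p = 0.022). These were the single calls among 4, 9 and 16 genes. After TMM-type scaling, 4, 8 and 8 of these genes were called higher, beside 11 of 16 in complex IV and 2.57% of all genes. In complex I, limma called 0 of 37 genes either way as deposited (11 were higher at an unadjusted p under 0.05), 20 higher after TMM-type scaling, 13 after nuclear and 2 after quantile scaling. The sign was more uniform than the calls, since 36 of the 37 had a log2 difference above 0, beside 20.6% of all genes, and the median was 0.39.

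The citric acid cycle and pyruvate entry followed, with a median of 0.67, beside −0.38 over all genes. Of their 22 genes, 8 were called higher (7 held), beside 0.814% of all genes, and 0 lower, beside 6.57%. All 3 subunits of the NAD-dependent isocitrate dehydrogenase were among them, and Idh3a was at 116 and 195 FPKM, above 45.7 to 72.7 and 89.2 to 138 in white libraries (log2 0.90, limma adjusted p = 0.026). Pdha1 and Pdhb of pyruvate dehydrogenase were higher by log2 0.88 and 0.84, and so was Pdk4, the kinase that inactivates the enzyme, at 49.1 and 147 FPKM against white maxima of 35.9 and 55.9 (log2 1.85, adjusted p = 0.024). Fatty acid oxidation had 4 of 23 genes called higher (Cpt1b, Acadl, Hadhb and Acaa2) and 1 lower (Cpt1a), beside 0.814% and 6.57% of all genes. Its median was 0.63. Hadhb of the trifunctional protein was at 111 FPKM on the normal diet, just above the white maximum of 99.6, and at 412 on the high-fat diet, far above 147. In the 19 genes of branched-chain amino acid breakdown limma called 0 (2 were higher at an unadjusted p under 0.05), with a median of 0.33.

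RNA of the mitochondrial genome itself was far more abundant in brown. The 13 mitochondrial mRNAs made up 80.6% of protein-coding FPKM in the normal-diet and 82.4% in the high-fat brown library. White libraries ranged from 20.5% to 66.5% on the normal and from 26.7% to 36.8% on the high-fat diet, so the brown libraries stood above all of them. The mean difference within diets was 41.5 percentage points, with an exact permutation p of 0.020 (two-sided, labels permuted within each diet), the smallest that 49 assignments can give. This is a share of length-corrected values, not of reads, and the short mt-Atp8 weighs most, but without it the difference was 42.6 points.

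Single transcripts showed the same. mt-Nd2, a complex I subunit, was at 80202 and 86001 FPKM in brown against white maxima of 27771 and 14264 (log2 2.93, SE 0.59, limma adjusted p = 0.013). Of the 13 mRNAs 9 were called higher as deposited, beside 0.814% of all genes, 10 after TMM-type and 7 after nuclear scaling. After quantile normalization, which forces the top ranks of all libraries to 1 value, 0 were called. The rRNAs mt-Rnr1 and mt-Rnr2 were held, at 6934 and 6704 FPKM and at 6768 and 8140, above white maxima of 1725 and 1518 (log2 3.44 and 3.74, adjusted p = 0.0025 each). In a poly(A) library rRNA is carried along only in part, so these are not total rRNA levels.

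**Figure D3:**
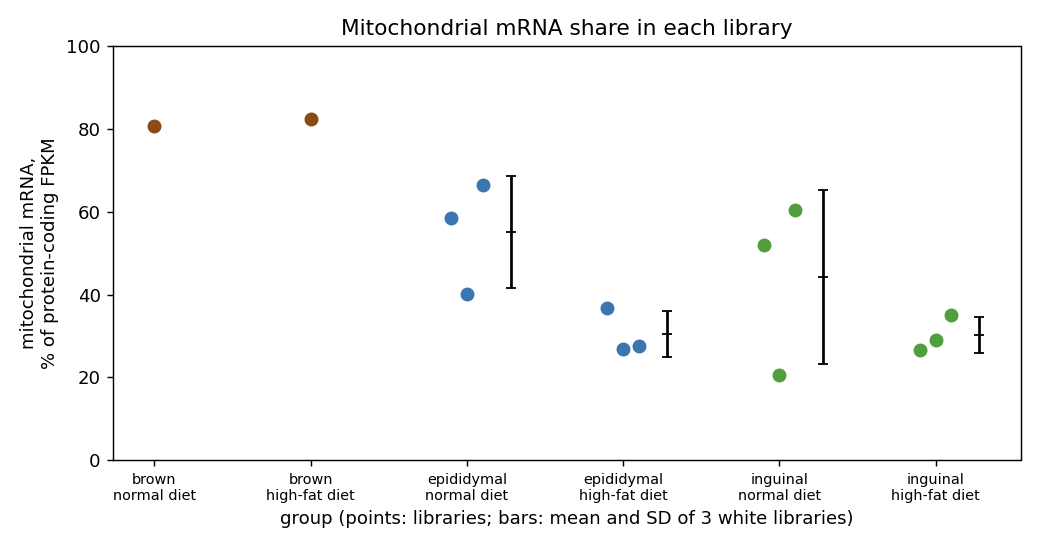
Share of protein-coding FPKM that came from the 13 mitochondrial mRNAs, in percent, with a point per library and the mean and SD of each white group of 3. The brown libraries are at 80.6% and 82.4%, above every white library, and normal-diet white libraries spread from 20.5% to 66.5%.

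The other uncoupling proteins did not follow Ucp1. Ucp2, a widely expressed relative that is abundant in macrophages, was at 21.5 and 39.5 FPKM in brown, below white ranges of 87.8 to 195 and 73.5 to 413 (log2 −2.27, SE 0.45, limma adjusted p = 0.012). Ucp3, the muscle form, was at 21.3 and 17.5 FPKM against 6.52 to 19.5 and 15.1 to 20.7 (log2 0.40, adjusted p = 0.47). In creatine and calcium cycling, 4 of 11 genes past the filter were called higher and 2 lower (Gatm and Atp2a3). Over all genes these shares were 0.814% and 6.57%. The median of the 11 was −0.39, beside −0.38 over all genes. Of the higher ones 3, Ckm, Atp2a1 and sarcolipin (Sln), are genes of striated muscle. Gatm, the first enzyme of creatine synthesis, was lower at 0 and 0.648 FPKM against white minima of 1.08 and 0.844 (log2 −2.12, adjusted p = 0.013).

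Hormones and markers of white fat mostly overlapped between the fat types on the normal diet, and less so on the high-fat diet. Of 15 white markers past the filter, 2 were called lower (Hoxc10 and Inhbb, a subunit of activin) and 0 higher. Over all genes these shares were 6.57% and 0.814%. On the normal diet 3 of the 15 lay above and 2 below all 6 white libraries, beside 8.84% and 37.5% of all genes. On the high-fat diet 0 lay above and 9 below, beside 8.38% and 45.1%. Leptin, Lep, was at 126 FPKM in the normal-diet brown library, within the white range of 87.6 to 213, and at 435 in the high-fat one, below all high-fat white libraries, which lay between 1184 and 1675 (log2 −0.32 and −1.66, over both −0.99 with limma adjusted p = 0.073). Adiponectin, Adipoq, was at 2536 FPKM on the normal diet, above the white maximum of 2386, and at 1277.5 on the high-fat diet, below the white minimum of 1443. Resistin (Retn), neuronatin (Nnat) and angiotensinogen (Agt) were not called, with log2 differences of 0.22, 0.36 and −0.18. Adrb3, the beta-adrenergic receptor of fat cells, was at 358 FPKM against 55.7 to 240 on the normal diet and at 150 against 55.2 to 190 on the high-fat diet (log2 0.82, adjusted p = 0.22). Pparg, the master factor of fat cells, was among the 15 adipocyte transcription factors, of which limma called 0 (1 higher and 1 lower at an unadjusted p under 0.05).

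Lists of fat storage genes had medians above that of all genes on the normal diet, and closer to it or below it on the high-fat diet. The median log2 difference was 0.93 on the normal and −0.38 on the high-fat diet for 14 genes of triglyceride synthesis, 0.97 and −0.07 for 18 genes of de novo lipogenesis, 0.52 and −0.59 for 15 of lipolysis and the lipid droplet, and 0.43 and −0.42 for 20 of the peroxisome. Over all genes these medians were −0.39 and −0.37. The 10 adipocyte markers moved in the same way, at 0.52 and −0.39, and their part in these differences was not tested. Since each diet has 1 brown library, the difference between diets was not tested.

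Dgat1 and Agpat2, enzymes of triglyceride synthesis, show the pattern. Dgat1 was at 222 FPKM in brown on the normal diet, above 69.1 to 141 in white, and at 96.3 on the high-fat diet, below 137 to 195. Agpat2 was at 389 against 138 to 268 and at 304 against 382 to 538. Such a switch, above all 6 white libraries on the normal and below all 6 on the high-fat diet, occurred in 4 of these 14 genes and in 5 of the 18 lipogenesis genes, beside 379 of all 14375 (2.64%). Other members stayed above white on both diets, beside 301 of all 14375 genes. They were 3 of the 14 (Mogat1, Gpd1 and Gk) and 5 of the 18 (Acaca, Acacb, Elovl3, Elovl5 and Elovl6). Below white on both diets were 2 of the 14 (Lpin2 and Lclat1), beside 2741 of all 14375. Examples of those above were the elongase Elovl6, at 27.5 and 9.84 FPKM against white maxima of 10.2 and 6.55 (log2 1.51, limma adjusted p = 0.029), and glycerol kinase.

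**Figure D4:**
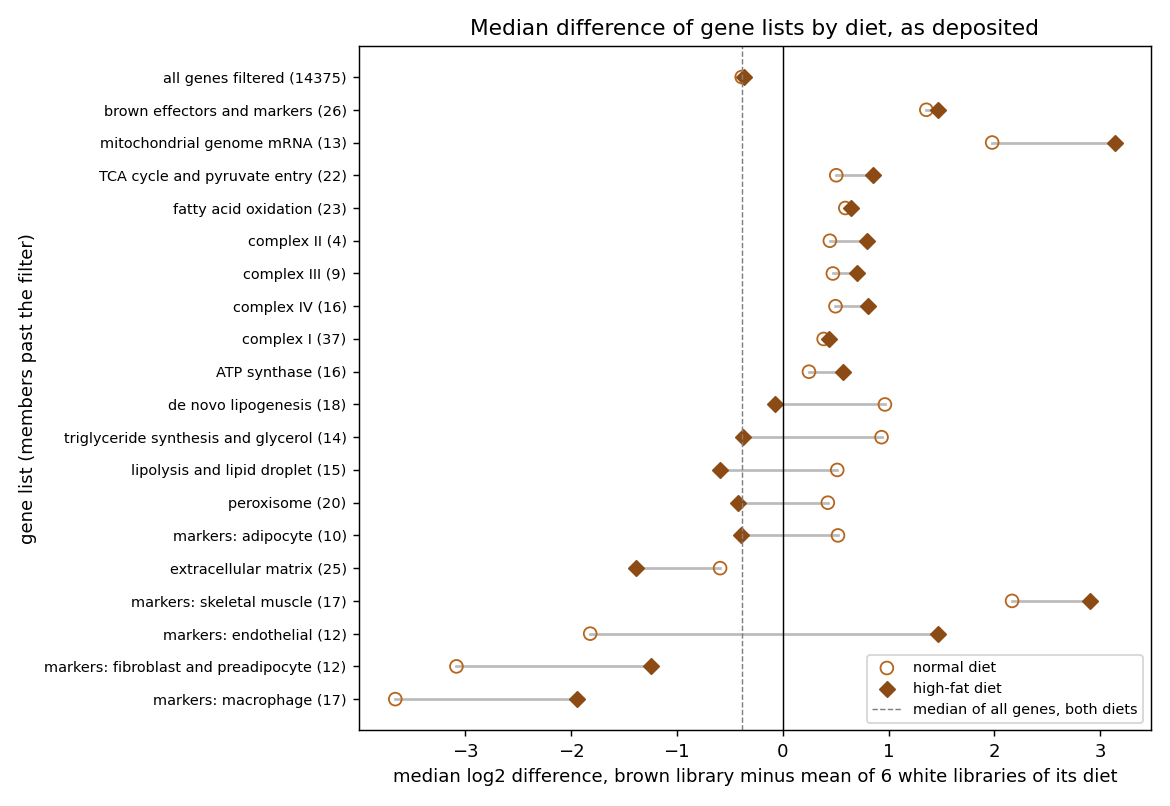
Median log2 difference of each gene list, brown library minus the mean of the 6 white libraries of its diet, with an open circle for the normal and a filled diamond for the high-fat diet and the number of genes past the filter in parentheses. Fat storage lists lie right of 0 on the normal diet and left of it, closer to or past the median of all genes, on the high-fat diet, and endothelial markers go the opposite way, from −1.82 to 1.47.

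The reverse switch, below all 6 white libraries on the normal diet and above all 6 on the high-fat diet, occurred in 385 genes (2.68%) and in 7 of 12 endothelial markers. The endothelial sum was 158 FPKM in the normal-diet brown library, under 441 to 822 in white, and 519 in the high-fat one, over 59.7 to 447. Kdr, a receptor for vascular endothelial growth factor, was at 14.1 against 33.5 to 47.6 FPKM on the normal and at 38.5 against 2.54 to 24.9 on the high-fat diet. The white side itself moved: the epididymal high-fat libraries had endothelial sums of 59.7, 115 and 104 FPKM and the inguinal high-fat ones 347, 447 and 440.

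The heat shock genes Hspa1b and Hspa1a had the largest rise in the signed log2 difference from the normal to the high-fat diet among protein-coding genes, 6.24 and 5.59. Hspa1b was at 4.69 FPKM in brown on the normal diet, below 5.94 to 18.2 in white, and at 89.1 on the high-fat diet, above 0.743 to 4.65. Hspa1a was at 1.71 and 57.6 against 1.02 to 9.98 and 1.01 to 4.69. These are near-identical copies, so reads between them are uncertain, and the same holds for the haemoglobin genes Hba-a1 and Hba-a2 and the pseudogenes Rpl36-ps2, Rpl18-ps2, Cd63-ps and Dynlt1-ps1, which the naming rule also picked. In the other direction, the homeobox gene Irx2 was at 12.3 FPKM on the normal diet, above 0 to 3.29 in white, and at 0.385 on the high-fat diet, within 0 to 2.67.

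Set side by side without white fat, the high-fat brown library was at least 2-fold above the normal-diet one for 1665 genes (11.6%) and at least 2-fold below it for 893 (6.21%). Among the 26 brown effectors 12 were at least 2-fold above and 0 below. Among 12 endothelial markers 11, among 17 macrophage markers 9 and among 17 muscle markers 8 were also at least 2-fold above. These are differences between 2 single libraries.

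**Figure D5:**
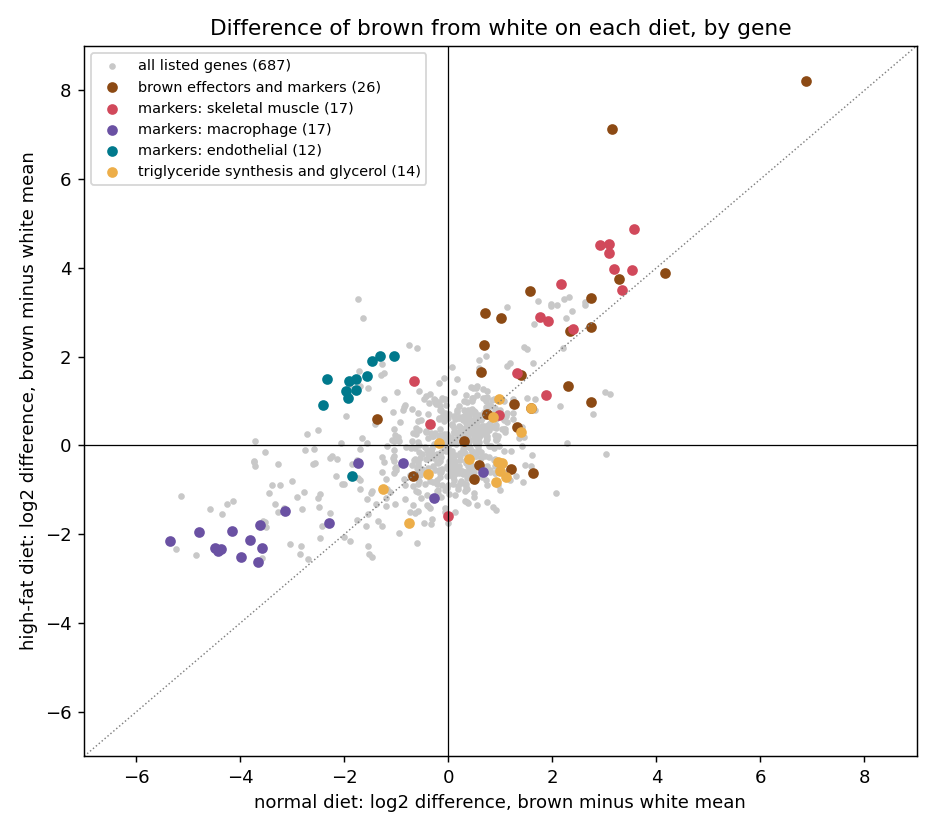
Log2 difference of brown from white on the normal diet (x axis) and the high-fat diet (y axis) for the 687 listed genes past the filter, with 5 lists in colour and a dotted line of equal difference. Brown effectors and muscle markers lie mostly in the upper right, macrophage markers mostly in the lower left, 11 of 12 endothelial markers in the upper left and triglyceride genes mostly right of 0.

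Many of the largest lower calls were genes of macrophages and antigen presentation. The 15 named by size were Retnla, Tyrobp, Lsp1, Laptm5, Cd74, H2-Aa, H2-Eb1, Ctss, S100a4, Folr2, Ptprc, Lyz2, H2-Ab1, Igfbp6 and Cotl1. Retnla, a product of alternatively activated macrophages, was at 1.99 and 29.6 FPKM in brown against 68.8 to 840 and 182 to 378 in white libraries (log2 −4.90, SE 0.81, limma adjusted p = 0.0055). H2-Aa, H2-Eb1 and H2-Ab1 encode class II antigen presentation chains, and H2-Aa was at 4.64 and 44.3 FPKM against white medians of 237 and 255, with no overlap (log2 −4.12, adjusted p = 0.0062). Of the 17 macrophage markers, 11 were called lower (9 held), beside 6.57% called lower and 0.883% held lower over all genes. Adgre1, which encodes the F4/80 antigen, was at 0.157 and 4.30 FPKM against 3.62 to 18.3 and 10.7 to 83.5. In other immune lists, 1 of 15 lymphocyte markers and 1 of 17 cytokines and chemokines were called lower (0 held in either), beside 6.57% of all genes. Their median log2 differences were −2.04 and −1.01, beside −0.38 over all genes. In these lists 0 and 3 members had a log2 difference above 0, beside 20.6% of all genes. The lymphocyte median was −3.38 on the normal and −0.39 on the high-fat diet, beside −0.39 and −0.37 over all genes. On the normal diet the white side included inguinal replicates 0 and 2, with lymphocyte sums of 801 and 1269 FPKM. Each of the 15 genes named by size lost its call when the normal-diet brown library was left out, and Ptprc also without the high-fat one. Ptprc lost its call in 10 of the 14 fits without a library, and after TMM-type scaling (limma adjusted p = 0.077). After quantile normalization Ptprc, Laptm5 and Cotl1 were not called (limma adjusted p = 0.15, 0.056 and 0.070).

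Fibroblast and matrix genes were lower as well. Of 12 fibroblast and preadipocyte markers, 8 were called lower (1 held, Dcn). Of 25 extracellular matrix genes 10 were called lower (2 held, Fn1 and Mmp2) and 0 higher, with a median of −1.04. Over all genes 6.57% were called lower and 0.883% held lower, and the median was −0.38. Fibronectin, Fn1, was at 1.01 and 4.18 FPKM in brown against 15.1 to 90.8 and 11.9 to 48.0 (log2 −3.66, SE 0.57, limma adjusted p = 0.0040). Igfbp6, a binding protein of insulin-like growth factor II, was at 2.11 and 0.147 against a white minimum of 4.38, with no overlap (log2 −3.71, adjusted p = 0.0025). The fibroblast marker sum was 167 and 248 FPKM in brown, against 723 to 1921 and 250 to 516 in white libraries, and its part in the matrix difference was not tested.

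Among 461 long noncoding RNA (lncRNA) genes past the filter, limma called 3 higher (0.651%) and 4 lower (0.868%) in brown. H19 (ENSMUSG00000000031, chromosome 7, 142575530 to 142578146), an imprinted lncRNA, was at 2.24 and 5.67 FPKM against white maxima of 0.188 and 0.794 (log2 2.83, SE 0.41, adjusted p = 0.0029). Gm11274 was at 2.45 and 1.73 FPKM and listed at 0 in all 6 normal-diet white libraries, with at most 0.462 on the high-fat diet (log2 2.21, adjusted p = 0.0053). AI606473 was the third, with groups that overlapped. The 4 lower ones were AI662270, Gm20605, 1500011B03Rik and 3110039I08Rik, of which AI662270 was at 0 and 1.79 FPKM against 4.41 to 30.9 and 3.30 to 20.6.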

How the data were processed

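The submitters' processing notes name TopHat2 2.0.9, Cuffdiff 2.1.1 and the mm10 build for these poly(A) RNA-seq libraries. FPKM per gene, as deposited by the authors, came in 1 file per library with 38553 features, and no source used here gives the annotation, the strand setting or the scaling between libraries. Reads cannot be recovered from such values, so depth is unknown and precision rests on the spread between libraries (15399 to 18029 genes above 0 in each). A listed 0 can be a failed estimate.

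Symbols were matched to 36638 features, and classes, lengths and coordinates come from RefSeq on GRCm38.p6. Of the 14375 genes kept, 689 had no RefSeq length. All 14 libraries entered 1 limma model (version 3.58.1, R 4.3.3, eBayes with a trend) of log2(FPKM + 0.5) with diet and depot as additive terms, brown minus the mean of epididymal and inguinal, two-sided, Benjamini-Hochberg adjusted over all genes, a call at p under 0.05. The model has 10 residual degrees of freedom, nearly all from white triplicates, whose spread the brown libraries are taken to share; where a brown library was left out, the other stood alone. Nothing in the labels ties replicates to separate cultures beyond the design's word, so p-values measure the spread between these libraries. The script was tested on simulated data.

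The brown libraries, gene lists and naming rule were chosen with earlier results of these data known. Genes were named by rule: among calls, the 15 of widest log2 difference in either direction, without overlap and with a mean of at least 5 FPKM (lncRNAs up to 5 at 1 FPKM), up to 4 each way per list, a fixed set of known brown and white genes, up to 8 each way for the gap between diets and up to 6 each way between white depots. Predicted genes and antigen receptor segments were left out of these rules except for lncRNAs. The genes this rule picked as below the inguinal and within the epididymal range are not reported here.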

Additional observations from a re-analysis of the deposited data

Results flagged for a closer look

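The following results had the brown library above all 6 white libraries on one diet and below all 6 on the other. With 1 brown library per diet the difference between diets was not tested. The triglyceride synthesis genes summed to 3976 FPKM in brown on the normal and 2993 on the high-fat diet (white 1355 to 3143 and 3040 to 3947), and the peroxisome genes to 1760 and 1411 (white 907 to 1663 and 1519 to 1837). The endothelial markers summed to 158 and 519 FPKM (white 441 to 822 and 59.7 to 447). The mammary epithelium list summed to 2422 and 586 FPKM (white 739 to 2328 and 937 to 1444), which was transferrin, Trf, alone, since the other 9 members were listed at 0 in both brown libraries.

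Among the genes named in the report, those that switched sides were Adipoq, whose log2 difference from white changed by −1.2 from the normal to the high-fat diet, Agpat2 (−1.57), Dgat1 (−1.81), Kdr (3.37), Hspa1b (6.24) and the pseudogenes Cd63-ps (−3.37) and Rpl18-ps2 (−4.52).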

How the results depend on the processing

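No paired analysis was possible because the titles of the brown libraries carry no replicate number. Against 117 genes higher and 944 lower, the counts were 201 and 602 after nuclear and 369 and 313 after TMM-type scaling, 127 lower after quantile normalization, 536 lower without a filter, 183 and 1823 with epididymal libraries only, 0 and 1 with inguinal libraries only (limma, where 267 and 2739 had an unadjusted p under 0.05), 179 and 2110 with the means of 6 groups, 17 and 58 with array weights, and 1784 lower without inguinal normal-diet replicates 0 and 2. Leaving out 1 library gave 36 to 138 higher and 31 to 1546 lower. The lowest came from leaving out the brown normal-diet library and the highest lower count from leaving out epididymal normal-diet replicate 0, and leaving out a white library gave 78 to 138 and 551 to 1546. Genes above all white libraries numbered 147, but 302, 713 and 598 after nuclear, TMM-type and quantile scaling, and 389 and 270 against epididymal or inguinal libraries alone. Genes below all of them numbered 1675, but 950, 559 and 380, and 3177 and 2834. Leaving out 1 library gave 147 to 670 above and 1686 to 4019 below, the highest without a brown one, since fewer libraries had to lie outside. The mitochondrial mRNA difference was 38.6 to 43.2 points with each white library left out. Of 134 named genes that were called, 114 were also called after TMM-type scaling, 87 after quantile normalization, 113 against epididymal libraries only, 1 against inguinal libraries only, 26 with array weights, 21 without the brown normal-diet and 70 without the brown high-fat library. Tbx15 changed sign against inguinal libraries only (log2 −0.0362). Signs of genes that passed no test were not compared. Other causes of these shifts were not tested.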
